A study of Mus musculus with 2 samples.

Results

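Early monocytes and monocyte progenitors are the bone marrow cells on the way from the granulocyte-monocyte progenitor to the released monocyte. Here they were the cells with at least 4 UMIs in sum of Csf1r, Ms4a6c, F13a1 and Ccr2, with under 3 UMIs in sum of Clec4a1, Clec4a3 and Wfdc17, and with under 3 UMIs each of Siglech and Cd79a. A further limit kept Retnlg, a neutrophil transcript, under 100 UMIs per 10000. A UMI (unique molecular identifier) marks 1 captured mRNA molecule. The rule held for 227 of 2478 cells, 95 of 1309 in the Col1a1fspKO library and 132 of 1169 in the WT library. The cells were chosen on their own measured counts, so the levels of these 10 genes in them are a description and not a finding, and a comparison with other cells of the same libraries is no test.

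As background, monocytes are made in the marrow from granulocyte-monocyte progenitors, which fill primary granules with the proteases Elane, Prtn3 and Ctsg and with the peroxidase Mpo. The transcription factors Irf8 and Klf4 turn such progenitors towards the monocyte fate, and Csf1r, the receptor of macrophage colony-stimulating factor, sustains it. The young monocyte loses the granule transcripts, stops dividing, carries Ly6C on its surface and leaves the marrow through the chemokine receptor Ccr2.

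The Col1a1fspKO library came from Fsp1-Cre;Col1a1flox/flox mice and the WT library from littermates with the same floxed Col1a1 alleles but no Cre. Col1a1 encodes the α1 chain of type I collagen, and part of its exons lies between loxP sites. Cre is driven by the promoter of Fsp1 (S100a4), and the early cells themselves held S100a4 transcripts, 434 UMIs in the Col1a1fspKO library against 766 in the WT library. All mice were 2 months old and untreated. Each library pooled live sorted marrow cells, flushed from femur and tibia, of 2 mice, so there was 1 library per genotype, no replicate and no test between genotypes. The intervals in parentheses are 95% intervals for counting error, and they do not hold the variation from mouse to mouse. Those of levels and ratios are taken on UMIs summed over cells, so they do not hold the variation from cell to cell either.

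The early cells were deeper than most, with a median of 8874 UMIs in Col1a1fspKO (2718 to 29963) and 8760 in WT (3020 to 31151), against 4954 and 5534 over all cells. In all they held 1006527 UMIs in Col1a1fspKO and 1318033 in WT. The libraries shared 2 cell barcodes, and 0 of these belonged to an early cell. Col1a1 had 0 UMIs in the early cells of either library. The 3' reads of this chemistry lie outside the deleted exons, so this does not check the genotype.

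The rule also let in cells that carried markers of other cell types. Per 10000 UMIs, 5 cells of Col1a1fspKO and 5 of WT held 200 or more UMIs of 12 neutrophil genes, and 3 and 3 cells held 20 or more of T and natural killer genes. Basophil, mast cell and eosinophil genes reached 20 in 0 cells of Col1a1fspKO and in 5 of WT, conventional dendritic genes reached 20 in 4 and 2 cells, and plasmacytoid dendritic genes reached 40 in 3 and 1 cells. Together these were 14 cells in Col1a1fspKO and 15 in WT, which leaves 81 and 117 cells. Summed over the early cells, the neutrophil genes stood at 12711 UMIs per 1000000 (CPM) in Col1a1fspKO and 7016 in WT, and at 4357 and 3891 without these cells. The basophil list stood at 55.6 and 1045.5 CPM and at 58.2 and 41.7 without them. Results that leaned on these cells are given with and without them where they are described. The limits were set after the values had been seen.

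The other marker lists were low or even. The B cell genes stood at 93.4 CPM in Col1a1fspKO and 86.5 in WT, the macrophage genes at 37.8 and 75.9, and the stroma and endothelium genes at 18.9 and 35.7. Of 8 megakaryocyte genes, 8 were at 0 in Col1a1fspKO and 6 in WT. The erythroid genes had 9962 CPM in Col1a1fspKO and 8484 in WT here, 10706 and 14250 in mature monocytes and 9762 and 8300 in the Mpo-positive progenitors.

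The markers of early monocytes were present in both libraries. F13a1, the A subunit of coagulation factor XIII, stood at 449 CPM (409 to 492) in Col1a1fspKO and 546 (506 to 587) in WT, against 7.05 and 6.27 in all cells that were neither monocytes nor Mpo-positive progenitors. Klf4 stood at 283 CPM (251 to 318) in Col1a1fspKO against 257 (231 to 286) in WT, with 7.54 and 8.41 in those other cells. Fn1, which encodes fibronectin, stood at 276 (245 to 311) and 445 (410 to 483) CPM against 4.97 and 7.42. Ass1, argininosuccinate synthase of the arginine cycle, stood at 223 (194 to 254) and 125 (107 to 146) against 13.9 and 11.2. Prtn3, proteinase 3, stood at 1409.8 (1337.4 to 1485.1) and 1447.6 (1383.4 to 1514.1) against 66.4 and 82.7. F13a1 is a gene of the rule, so its level here follows from the choice of the cells.

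**Figure D1:**
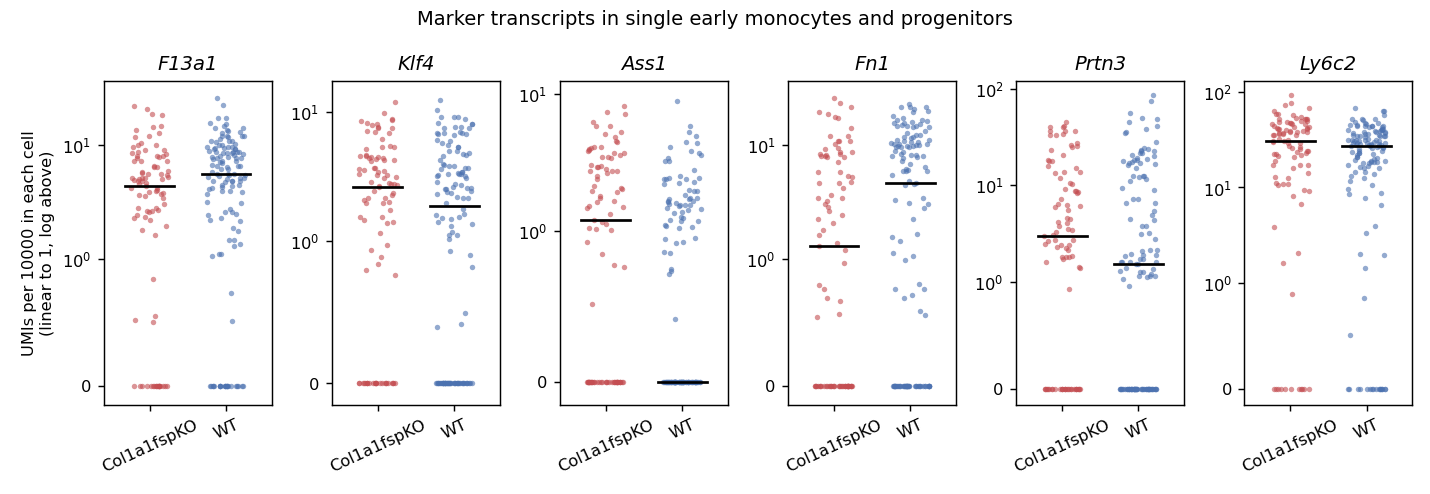
Marker transcripts in each early cell, as UMIs per 10000 UMIs of the cell (linear to 1 and log above), for Col1a1fspKO (95 cells) and WT (132 cells). Black bars are medians, and each gene has cells at 0 in both libraries.

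Within the early cells these markers were uneven from cell to cell. A UMI of F13a1 was found in 80% of Col1a1fspKO cells and 82.6% of WT cells, of Klf4 in 73.7% and 64.4%, of Fn1 in 58.9% and 65.9%, of Prtn3 in 69.5% and 59.8%, and of Ass1 in 61.1% and 48.5%. Free RNA can give such UMIs too. In B cells, taken as cells with at least 3 UMIs of Cd79a, the shares were 4.17% and 5.50% for F13a1, 5% and 4.13% for Prtn3 and 8.75% and 11.9% for Ass1, at median depths of 4594 and 5722 UMIs. With every cell thinned to 2500 UMIs, F13a1 was found in 60% and 66.7% of early cells against 1.67% and 1.83% of B cells, and Ass1 in 23.2% and 21.2% against 2.5% and 4.59%. The highest cells reached 22.1 and 25.9 UMIs per 10000 for F13a1, 25.8 and 22.7 for Fn1, and 45.4 and 86.0 for Prtn3. Such maxima rest on single cells, and the Col1a1fspKO maxima of F13a1 and Fn1 came from 1 cell of 2718 UMIs.

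The genes of the rule sat where the rule puts them. Ms4a6c, a membrane protein of the monocyte line, stood at 649 CPM in Col1a1fspKO and 671 in WT, Ccr2 at 459 and 483, and Csf1r at 62.6 and 75.9. Of the genes that keep cells out, Wfdc17 stood at 59.6 and 47.8 CPM, Clec4a1 at 17.9 and 19.7, Clec4a3 at 4.97 and 10.6, Siglech at 7.95 and 2.28, Cd79a at 4.97 and 6.83, and Retnlg at 357 and 214. At the lower edge, 2 cells of Col1a1fspKO and 8 of WT had exactly 4 UMIs of the rule genes, with F13a1 at 0 and 78.4 CPM, while 19 and 14 cells with 3 UMIs stayed out, with F13a1 at 6.26 and 0. At the edge towards mature monocytes, 25 and 32 cells had 2 UMIs of Clec4a1, Clec4a3 and Wfdc17, with F13a1 at 513 and 682 CPM, and 19 and 30 cells with 3 UMIs stayed out, with F13a1 at 604 and 802. F13a1 is itself 1 of the genes summed at the lower edge. 5 cells of Col1a1fspKO and 8 of WT entered on Ccr2 alone, and these had 0 UMIs of Klf4 and Fn1.

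The early cells were then set beside 2 neighbouring classes, the mature monocytes, which meet the same rule but have at least 3 UMIs of Clec4a1, Clec4a3 and Wfdc17 (188 and 169 cells), and the Mpo-positive progenitors, which have at least 10 UMIs of Mpo and under 4 of the rule genes (12 and 16 cells). A gene is called apart where the ratio is at least 2 or at most 0.5 in both libraries, among genes with at least 50 UMIs in each library over the 2 classes. Against mature monocytes 263 of 3971 genes were at least 2-fold higher in the early cells, which is 6.62%, and 172 were at least 2-fold lower, which is 4.33%. These are shares over all genes and stand beside each count of a list below. Only the early cells were screened for cells rich in other cells' markers, and the 2 neighbouring classes were taken whole.

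**Figure D2:**
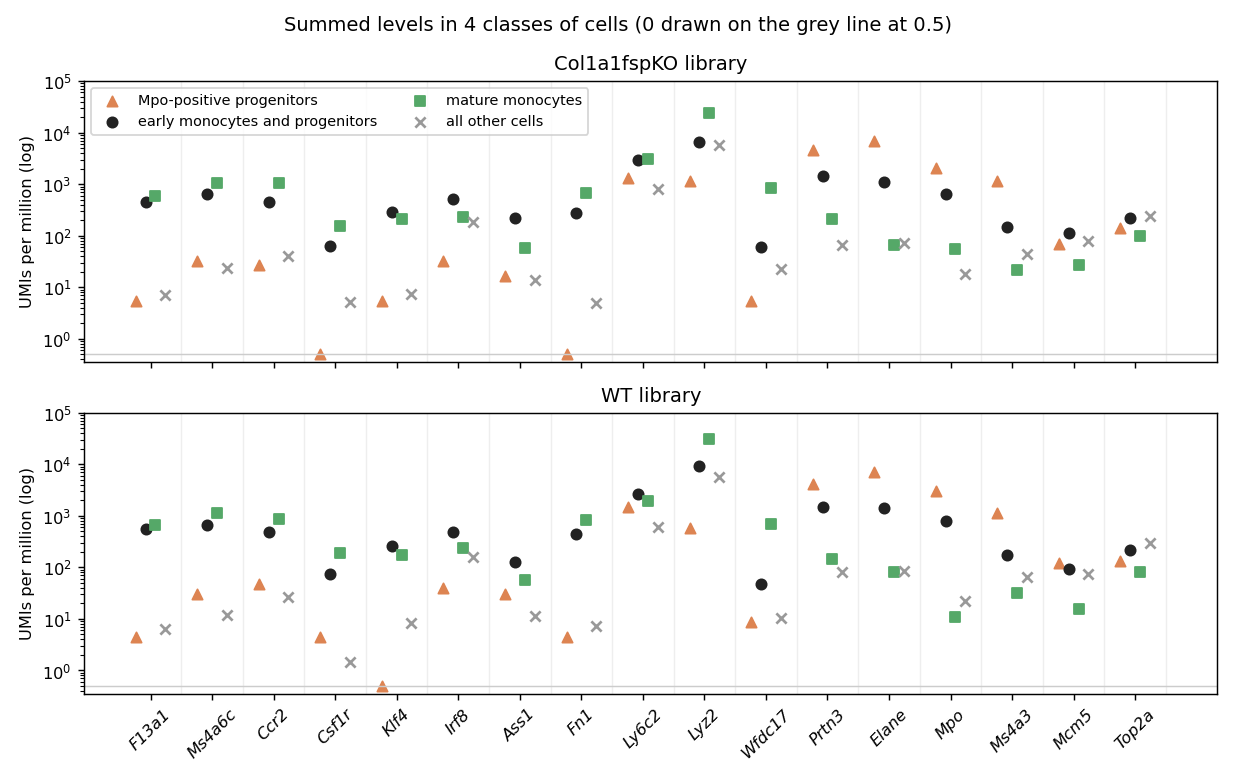
Summed levels of 17 genes in CPM (log axis) in the Mpo-positive progenitors, early cells, mature monocytes and all other cells of each library, with values of 0 drawn on the grey line at 0.5. In both libraries the early cells lie between the progenitors and the mature monocytes for Lyz2, Fn1, Elane, Mpo and Ms4a3, and above both for Irf8, Klf4 and Ass1.

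Primary granule transcripts set the early cells apart from mature monocytes. Of 10 genes of this list that could be compared, 7 were at least 2-fold higher and 1 was lower, and the median log2 ratio was 2.76 in Col1a1fspKO and 3.40 in WT, against 0.06 and 0.11 over all genes. Elane, neutrophil elastase, stood at 1094.8 CPM against 65.6 in Col1a1fspKO, a ratio of 16.7 (13.3 to 21.2), and at 1424.1 against 82.6 in WT, a ratio of 17.2 (13.9 to 21.7). Ctsg, cathepsin G, was 14.5-fold higher in Col1a1fspKO (9.95 to 21.7) and 59.0-fold in WT (29.8 to 137), and Mpo 11.6-fold (9.05 to 15.2) and 71.97-fold (40.1 to 145). Ms4a3, a cell cycle regulator of granulocyte-monocyte progenitors, stood at 148 and 175 CPM against 21.3 and 32.5. The exception in the list was Lyz1, a lysozyme. Mature monocytes held 7.87 CPM of Ctsg and 10.8 of Mpo in WT, against 24.6 and 54.9 in Col1a1fspKO. Secondary and tertiary granule genes did the opposite, since 9 of 14 were at least 2-fold lower in the early cells and 0 were higher. Camp, the cathelicidin, stood at 1645.3 and 759 CPM against 4354.5 and 3622.6. Without the cells rich in other cells' markers Camp stood at 349 and 301 CPM in the early cells. Its ratio to mature monocytes was then 0.0802 and 0.0832, against 0.378 and 0.209 with them. The unscreened mature monocytes held the neutrophil genes at 26677 CPM in Col1a1fspKO and 25812 in WT. How much of these granule transcripts came from neutrophils was not tested.

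Genes of dividing and immature cells were higher as well. Of 23 S phase genes 22 were at least 2-fold higher and 0 lower, with medians of 1.84 and 1.98 on the log2 scale. Mcm5, a subunit of the replicative helicase, stood at 113 CPM against 27.1 in Col1a1fspKO and at 92.6 against 15.7 in WT. Of 32 G2/M genes 16 were higher and 0 lower. Top2a, the topoisomerase that untangles sister chromatids, stood at 224 and 213 CPM against 96.7 and 82.6. Of 6 stem and progenitor genes 5 were higher, namely Cd34, Sox4, Myb, Cdk6 and Mif. Myb, a transcription factor that keeps progenitors immature, stood at 60.6 and 85.0 CPM against 13.9 and 2.95. Ranked by the ratio of the library in which it was nearer to 1, the first gene was Ccnd2, cyclin D2, with 48 and 103 UMIs in the early cells and 2 and 2 in mature monocytes, a ratio of 29.1 (7.62 to 247) in Col1a1fspKO and 39.7 (10.7 to 332) in WT. Phgdh, the first enzyme of serine synthesis, had 105 and 142 UMIs against 8 and 2, and Hmgn1, a nucleosome-binding protein, 253 and 248 against 36 and 29.

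Among the 15 highest ratios over mature monocytes were also Cst7, Igfbp4, Kcnk12 and Gria3, each under 170 CPM in either library. Gzma, Ly6d and Ptprcap were in the same set, but they are genes of lymphoid cells, and without the cells rich in other cells' markers they no longer reached 50 UMIs in each library. Ccnd2 did not reach 50 UMIs there either. Prtn3, Elane, Mpo, Ctsg and Ms4a3 were still at least 5.45-fold higher in both libraries without those cells.

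Genes of the finished monocyte were lower in the early cells. Of 24 Ly6C-high monocyte genes 13 were at least 2-fold lower and 0 higher, with medians of -1.27 and -1.13. Lyz2, the lysozyme of monocytes and granulocytes, stood at 6676.4 CPM against 24293.1 in Col1a1fspKO and at 9184.9 against 30609.3 in WT. Fn1 stood at 276 against 674 CPM, a ratio of 0.410 (0.356 to 0.470), and at 445 against 818, a ratio of 0.544 (0.489 to 0.606), so in WT it was under 2-fold apart. Ly6c2, the main Ly6C gene, was lower in the early cells in Col1a1fspKO, with 2961.7 CPM against 3120.6, and higher in WT, with 2678.2 against 1921.4. S100a4 stood at 431 and 581 CPM against 1202.0 and 1321.6. The farthest down were Hpgd, an enzyme that inactivates prostaglandins (4.97 and 11.4 CPM against 59.0 and 139), and the signal regulatory genes Sirpb1b and Sirpb1c. The Sirpb1 genes are near-identical copies whose reads can be split, so their values are uncertain.

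Interferon-stimulated genes were lower as a list, with 13 of 23 at least 2-fold lower, 1, Ifitm1, higher and medians of -1.10 and -1.36. Isg15, a ubiquitin-like protein, stood at 19.9 CPM against 82.8 in Col1a1fspKO and at 3.79 against 44.3 in WT. Ifitm6, Rtp4 and Slfn1 were also among the 15 lowest. Apoe, apolipoprotein E, stood at 55.6 and 53.9 CPM against 316 and 524, and Ctss, the lysosomal protease cathepsin S, at 147 and 206 against 708 and 769. Of 21 lysosome and cathepsin genes 5 were lower, and of 7 NADPH oxidase genes 2. Cybb, the catalytic subunit of that oxidase, stood at 278 and 345 CPM against 814 and 853. Cd74, the invariant chain of antigen presentation, stood at 129 and 91.0 CPM against 483 and 881. In the early cells without those rich in other cells' markers it stood at 22.1 and 10.9. The unscreened mature monocytes held the conventional dendritic genes at 858 CPM in Col1a1fspKO and 1764 in WT, against 322 and 203 in all early cells.

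Irf8, Ass1 and Klf4 were the markers that were high in the early cells rather than in between. Irf8 stood at 507 CPM against 233 in Col1a1fspKO, a ratio of 2.18 (1.88 to 2.52), and at 477 against 232 in WT, a ratio of 2.06 (1.77 to 2.40). It was at 32.6 and 39.5 CPM in Mpo-positive progenitors. Ass1 stood at 3.77 times its level in mature monocytes in Col1a1fspKO (2.88 to 4.99) and 2.16 times in WT (1.59 to 2.96). Klf4 was 1.36-fold (1.15 to 1.62) and 1.47-fold (1.22 to 1.77) higher. Of 4 arginine and citrulline genes 2 were at least 2-fold higher, Ass1 and Odc1, the ornithine decarboxylase of polyamine synthesis, which stood at 36.8 and 59.9 CPM against 13.1 and 13.8.

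The Mpo-positive progenitors held fewer transcripts of Ly6C-high monocyte genes, with a sum of 9246 CPM in Col1a1fspKO and 8954 in WT against 21108 and 24402 in the early cells, and very few of some of them. Klf4 had 1 UMI in the 12 cells of Col1a1fspKO and 0 in the 16 of WT, Fn1 had 0 and 1, and S100a4 had 2 and 1. In the early cells, S100a4 stood at 431 and 581 CPM, a ratio of 39.7 (10.9 to 329) in Col1a1fspKO and 132 (23.7 to 5239.4) in WT. Lgals3, galectin 3, stood at 1345.2 and 1284.5 CPM against 59.7 and 21.9, and Irf8 was 15.6-fold (7.10 to 42.6) and 12.1-fold (6.33 to 26.6) higher. Crip1, Ifi27l2a, Hopx, Rassf4 and Tpm4 were also among the 15 highest, with 0 to 32 UMIs in the progenitors. In the other direction, Fcnb, ficolin B, stood at 49.7 and 33.4 CPM against 548 and 671, Ms4a3 at 148 and 175 against 1172.0 and 1149.3, Elane at 1094.8 and 1424.1 against 6864.0 and 6992.6, and Cebpe, a transcription factor of granulocyte maturation, at 91.4 and 51.6 against 423 and 276. Without the cells rich in other cells' markers Fcnb stood at 12.8 and 23.4 CPM in the early cells, Cebpe at 53.6 and 44.2, and Ms4a3 at 147 and 177. These progenitors were few and deep, at medians of 15362 and 14515.5 UMIs. They also held the neutrophil genes at 49855 CPM in Col1a1fspKO and 35604 in WT. Their basophil, mast cell and eosinophil genes stood at 2469 and 5045 CPM. A difference of lineage and a difference of stage therefore cannot be told apart in these ratios.

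The granule transcripts also divided the early cells among themselves. Protease-rich cells were those with at least 10 UMIs of Mpo, Elane, Prtn3 and Ctsg per 10000, and made up 33 of 95 early cells in Col1a1fspKO, or 34.7% (25.3 to 45.2), and 43 of 132 in WT, or 32.6% (24.7 to 41.3). The difference was 2.16 percentage points (-10.0 to 14.6), so none was detectable with these numbers of cells. In mature monocytes the shares were 4.79% and 1.78%. Protease-rich cells were deeper than the other early cells, with medians of 17599 UMIs against 6892 in Col1a1fspKO and 14016 against 6336 in WT, and the part of depth in what follows was not tested.

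The 4 protease genes define this division, so that they are high on 1 side of it follows from the choice. Their upstream sequences are shown as a description of these genes. Each line gives the 250 bases before the annotated start on the gene's strand (RefSeq, GRCm38.p6, the assembly that the mm10 build of the files stands for). Capitals mark AGGAAGT, a PU.1-like motif, and AACGG, a MYB-like motif, on either strand. All 4 genes were found in the table.
Prtn3, chr10:79879417-79879666, plus strand: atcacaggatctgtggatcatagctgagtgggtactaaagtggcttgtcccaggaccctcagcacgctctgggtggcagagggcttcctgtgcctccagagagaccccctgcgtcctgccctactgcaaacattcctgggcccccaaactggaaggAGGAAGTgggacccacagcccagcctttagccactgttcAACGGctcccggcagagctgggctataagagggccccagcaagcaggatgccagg
Elane, chr10:79886062-79886311, plus strand: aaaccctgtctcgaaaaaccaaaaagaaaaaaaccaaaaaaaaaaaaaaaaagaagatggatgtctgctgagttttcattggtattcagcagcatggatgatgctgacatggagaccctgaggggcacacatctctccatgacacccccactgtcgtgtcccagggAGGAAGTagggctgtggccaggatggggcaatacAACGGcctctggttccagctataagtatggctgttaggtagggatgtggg
Mpo, chr11:87793534-87793783, plus strand: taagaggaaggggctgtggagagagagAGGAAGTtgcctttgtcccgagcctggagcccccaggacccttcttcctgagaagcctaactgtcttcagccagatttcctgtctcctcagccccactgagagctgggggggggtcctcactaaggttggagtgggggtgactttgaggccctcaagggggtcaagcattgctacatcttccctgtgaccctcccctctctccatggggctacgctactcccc
Ctsg, chr14:56102575-56102824, minus strand: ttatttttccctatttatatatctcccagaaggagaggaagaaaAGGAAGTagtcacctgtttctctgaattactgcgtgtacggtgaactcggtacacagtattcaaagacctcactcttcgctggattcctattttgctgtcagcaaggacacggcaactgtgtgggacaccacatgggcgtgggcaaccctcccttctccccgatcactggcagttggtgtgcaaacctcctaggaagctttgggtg
The letters AGGAAGT were in all 4 windows, starting 94, 84, 223 and 206 bases before the start, and in 7.69% of all 32851 windows of this length. The letters AACGG were in the windows of Prtn3 and Elane, 55 and 50 bases before the start, and in 14.5% of all windows, and 1.07% of windows held both. Prtn3 and Elane are neighbours on chromosome 10. A match of letters is a description and not a binding site.

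Protease-rich early cells resembled progenitors in the genes that did not choose them. Among 2243 genes with at least 50 UMIs in each library, 39 were at least 2-fold higher in both libraries than in the other early cells, which is 1.74%, and 91 were at least 2-fold lower, which is 4.06%. Ms4a3 led with 146 and 227 UMIs against 3 and 4, a ratio of 42.1 (14.1 to 206) in Col1a1fspKO and 52.3 (20.2 to 194) in WT, or 36.6 and 181 without the cells rich in other cells' markers. Phgdh was 8.22-fold (4.28 to 17.7) and 4.53-fold (2.90 to 7.36) higher. Srm, spermidine synthase, was 4.09-fold and 5.88-fold higher, Cdk6, a kinase of G1, 3.50-fold and 4.46-fold, and Calr, a chaperone of the endoplasmic reticulum, 2.91-fold and 2.94-fold. Igfbp4, Mt1, Mif, Anxa3, Cst7 and Lta4h were also in the 15 highest. Of 4 stem and progenitor genes 3 were at least 2-fold higher and 0 lower.

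Monocyte genes were lower in the protease-rich cells. Fn1 stood at 57.4 CPM against 529 in Col1a1fspKO, a ratio of 0.109 (0.0722 to 0.158), and at 83.1 against 838 in WT, a ratio of 0.0992 (0.0741 to 0.131). Id2, an inhibitor of E-box transcription factors, had ratios of 0.171 and 0.119, the chemokine Ccl6 0.176 and 0.121, Ctss 0.202 and 0.150, and S100a4 0.217 and 0.230. Of 25 Ly6C-high monocyte genes 10 were at least 2-fold lower and 0 higher. Of 13 interferon-stimulated genes 6 were lower, among them Ifi27l2a with ratios of 0.150 and 0.0966. Gzma, Ccl5, Cd74, Ms4a4b and Ly6d were in the lowest 15 as well, but without the cells rich in other cells' markers they no longer reached 50 UMIs in each library. The markers Fn1, Id2, Ccl6, Ctss and S100a4 kept ratios of 0.0595 to 0.222 without those cells.

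Groups by protease content give the order in more detail. With the cells rich in other cells' markers left out, 12 cells of Col1a1fspKO and 15 of WT had at least 50 protease UMIs per 10000, 17 and 24 had 10 to 50, 35 and 37 had under 10, and 17 and 41 had 0. Over these groups, in that order, S100a4 stood at 87.4, 281, 732 and 1063.7 CPM in Col1a1fspKO and at 93.0, 328, 901 and 1290.5 in WT. Fn1 stood at 20.8, 108, 506 and 971 CPM and at 3.58, 120, 873 and 1044.5. Lyz2 stood at 1423.5, 5739.8, 10100.3 and 17284.6 CPM and at 1412.6, 4031.6, 13645.2 and 23034.8. These 3 genes thus had higher levels in each group with less protease, in both libraries.

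Some other genes were highest in a group with more protease or in a middle group. Cd34 stood at 79.1, 74.9, 25.1 and 0 CPM in Col1a1fspKO and at 118, 118, 18.7 and 4.32 in WT. Klf4 stood at 200, 304, 383 and 301 CPM and at 111, 364, 324 and 263, so its highest group was one of the middle ones in both libraries. Irf8 stood at 445, 473, 556 and 324 CPM and at 551, 531, 527 and 207, and was lowest in cells with 0 protease UMIs. F13a1 stood at 366, 426, 625 and 520 CPM and at 308, 501, 826 and 755. Ccr2, which the rule used, stood at 212, 342, 632 and 832 CPM and at 290, 443, 514 and 712. Ly6c2 differed least, with 3155.1, 3356.8, 3098.6 and 2624.5 CPM and 3050.5, 3216.5, 2574.4 and 2473.1. A cell with 0 protease UMIs can also be a shallow cell, since before any cell was left out the median depths of the 4 groups were 19812, 14022, 8700 and 4898 UMIs for Col1a1fspKO, against 18887, 13672, 8409 and 5487 in WT.

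**Figure D3:**
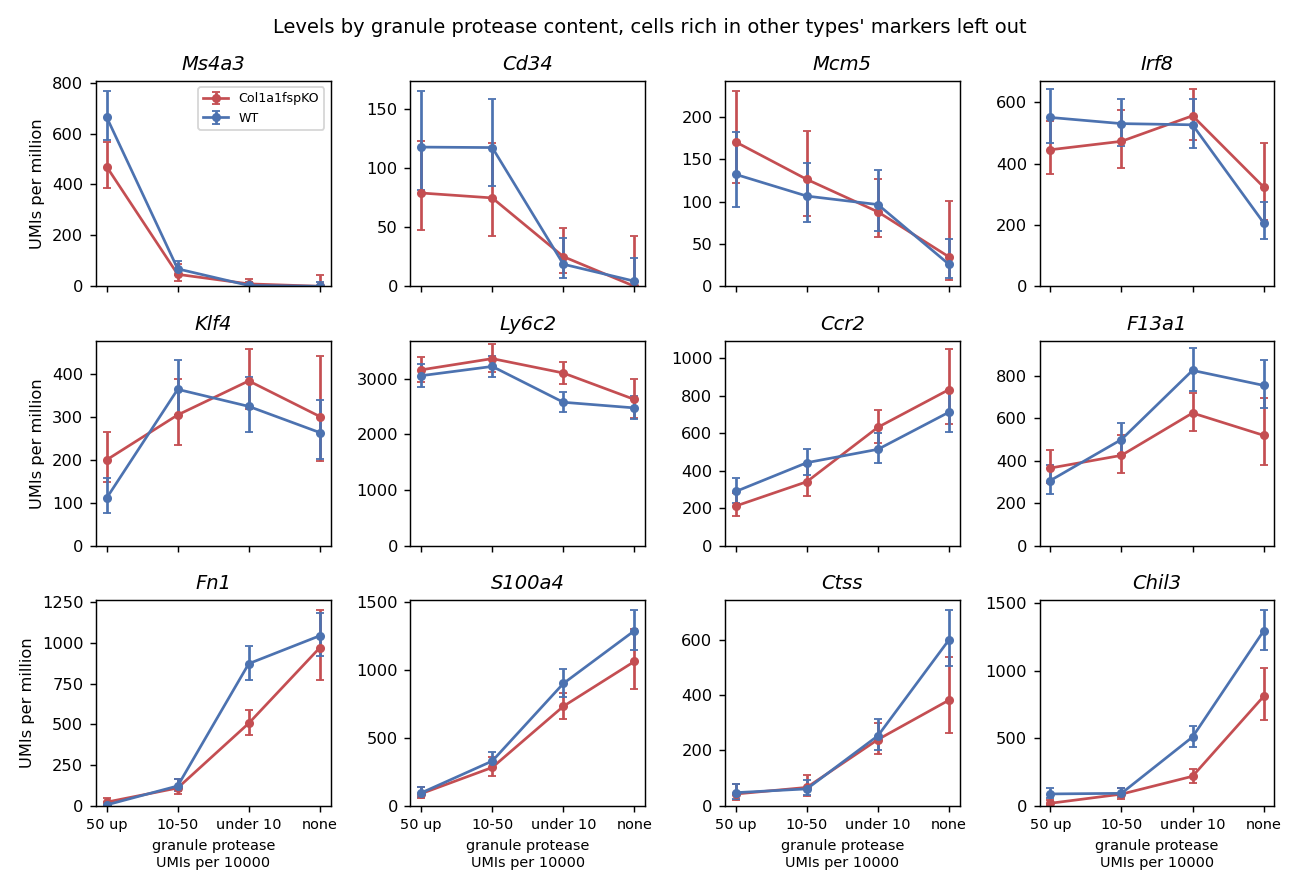
Levels of 12 genes in CPM (bars are exact 95% Poisson intervals, counting error only) in 4 groups of early cells from the highest to no granule protease UMIs, for Col1a1fspKO and WT. Ms4a3, Cd34 and Mcm5 are highest at the left and Ccr2, Fn1, S100a4, Ctss and Chil3 at the right, whereas Ly6c2 varies least.

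Many early cells carried transcripts of mitosis. With each cell thinned to 2500 UMIs, at least 3 UMIs of 8 G2/M genes were found in 41 of 95 early cells in Col1a1fspKO, or 43.2% (33.0 to 53.7), and in 45 of 132 in WT, or 34.1% (26.1 to 42.8). Unthinned, the shares were 73.7% and 57.6%. The thinned share was 11.7% (7.48 to 17.2) and 7.10% (3.72 to 12.1) in mature monocytes and 24.4% and 33.3% in all cells outside the 3 classes, where other dividing lineages are included. By protease group, over all early cells and from the highest to none, it was 28.6%, 36.8%, 64.9% and 24% in Col1a1fspKO and 12.5%, 44.4%, 42.5% and 28.6% in WT. S phase genes had another order, with their sum over the same groups at 2883, 3088, 2490 and 1584 CPM in Col1a1fspKO and 3464, 2870, 2406 and 1101 in WT. Mki67, a marker of cycling cells, stood at 143 CPM in Col1a1fspKO and 115 in WT. The difference between the libraries in the thinned share was 9.07 percentage points (-3.64 to 21.6), and the unthinned difference was 16.1 points (3.51 to 27.7).

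The comparison of the libraries asks how marrow cells differ when Fsp1-Cre deletes Col1a1. The WT library consisted to 11.3% (9.53 to 13.2) of early cells, whereas in the Col1a1fspKO library the share was 7.26% (5.91 to 8.80). Col1a1fspKO minus WT was thus -4.03 percentage points (-6.36 to -1.75). For mature monocytes the shares were 14.4% (12.5 to 16.4) in Col1a1fspKO against 14.5% (12.5 to 16.6) in WT, and Col1a1fspKO minus WT was -0.0947 points (-2.88 to 2.67). Among the early and mature monocytes together, the share of early ones was 33.6% (28.1 to 39.4) for Col1a1fspKO against 43.9% (38.2 to 49.7) for WT. Fewer early cells in the table and more of other cells cannot be told apart from shares. Without the cells rich in other cells' markers the shares were 6.19% and 10.0%, a difference of -3.82 points (-6.02 to -1.68).

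The shares were also taken by protease content. Early cells with 0 protease UMIs stood at 4.19% (3.12 to 5.50) of the WT library against 1.91% (1.24 to 2.81) of the Col1a1fspKO library. Col1a1fspKO minus WT was -2.28 points (-3.73 to -0.935). This group had 25 cells in Col1a1fspKO and 49 in WT. Without the cells rich in other cells' markers it had 17 and 41. Early cells with at least 50 per 10000 stood at 1.37% against 1.07%, and Col1a1fspKO minus WT was -0.299 points (-1.25 to 0.590). At 10 to 50 the shares were 2.31% against 1.45%, a difference of -0.858 points (-2.01 to 0.220). Above 0 and under 10 they were 3.42% against 2.83%, a difference of -0.595 points (-2.02 to 0.783). The differences thus did not follow the order of the groups, and they were not tested against each other. The rule depends on depth: after thinning to 2500 UMIs it takes 139 cells of Col1a1fspKO and 161 of WT, of which 68 and 71 were mature monocytes before.

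**Figure D4:**
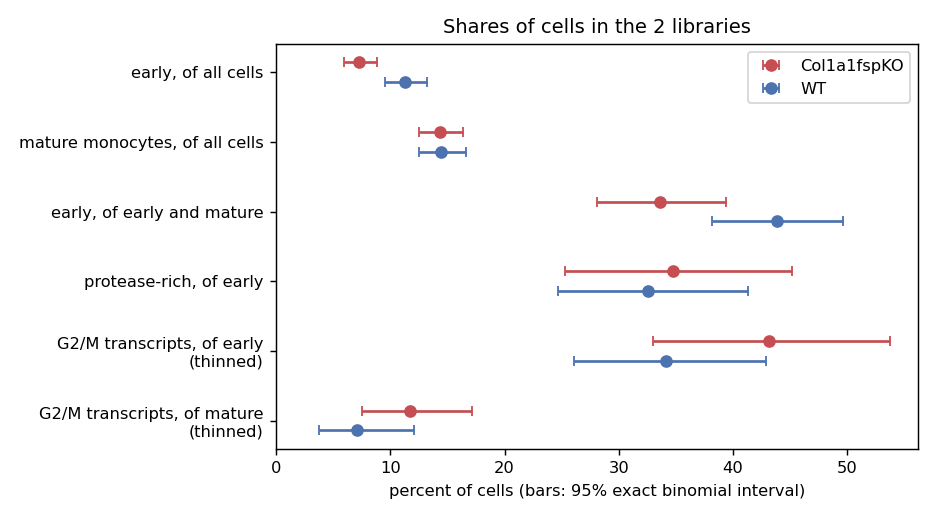
Shares of cells in percent with exact 95% binomial intervals (counting error only) for the Col1a1fspKO and WT libraries. The share of early cells is 7.26% and 11.3%, and the shares of mature monocytes, protease-rich cells and G2/M cells have overlapping intervals.

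At the gene level few genes were 2-fold or more apart between the early cells of the libraries. Among 4408 genes with at least 50 UMIs over both libraries, 23 were at least 2-fold higher in Col1a1fspKO, which is 0.522%, and 28 were at least 2-fold lower, which is 0.635%. The median log2 ratio over all of them was -0.03. Several monocyte and granule genes had intervals that included 1. Prtn3 had a ratio of 0.974 (0.909 to 1.04), Ms4a6c of 0.967 (0.873 to 1.07), Ccr2 of 0.951 (0.842 to 1.07), Klf4 of 1.10 (0.937 to 1.29) and Irf8 of 1.06 (0.943 to 1.20). The log2 ratio of Prtn3 was 0.75 among the cells with under 10 protease UMIs per 10000, a limit that counts Prtn3 itself, and after thinning a Prtn3 UMI was found in 52.6% of Col1a1fspKO cells against 36.4% of WT cells. F13a1 was at 0.823 (0.730 to 0.927), Mpo at 0.822 (0.744 to 0.908), Elane at 0.769 (0.713 to 0.829) and Ctsg at 0.766 (0.670 to 0.874).

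Ly6c1 had the largest difference, with 993 UMIs in 82 of 95 cells of Col1a1fspKO and 17 UMIs in 13 of 132 cells of WT. This was 987 CPM (926 to 1049.9) against 12.9 (7.51 to 20.7), a ratio of 76.5 (47.5 to 132). Ly6c2 stood at 2961.7 CPM against 2678.2, a ratio of 1.11 (1.05 to 1.16). Of the 25-base stretches of the Ly6c1 transcripts 27.4% also occur in Ly6c2 and 56.7% of those of Ly6c2 occur in Ly6c1, so reads of the pair can be split and the values of each are uncertain. The sum of the pair was 3948.2 CPM against 2691.1, a ratio of 1.47 (1.402 to 1.54). The ratio of Ly6c1 was 95.1 (55.5 to 179) in mature monocytes and 67.1 in the cells outside the 3 classes, so it was not confined to the early cells.

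Other genes were apart in the same direction in many cells. Mndal, an interferon-inducible gene, stood at 308 CPM (275 to 344) against 79.7 (65.2 to 96.4), a ratio of 3.87 (3.09 to 4.87), with UMIs in 83 and 64 cells. It has near-identical relatives, so its value is uncertain. Ocel1 had a ratio of 2.94 (1.92 to 4.57), Apobec3, a restriction factor of retroviruses, of 2.70 (1.77 to 4.19), and Tspan32 of 4.53 (2.40 to 9.16). In the other direction, Gdpd3 stood at 20.9 CPM against 92.6, a ratio of 0.225 (0.135 to 0.360), and Eif3j1, a subunit of a translation initiation factor with a near-identical copy, at 16.9 against 63.7, a ratio of 0.265 (0.147 to 0.450). In mature monocytes the ratios of Mndal, Tspan32, Gdpd3 and Eif3j1 were 2.67, 4.59, 0.130 and 0.233. In the cells outside the 3 classes the ratios were 2.12 for Mndal, 1.15 for Tspan32, 0.243 for Gdpd3, 0.291 for Eif3j1 and 5.22 for Apobec3, so Mndal, Gdpd3, Eif3j1 and Apobec3, like Ly6c1, were apart in cells of other kinds too. With 1 pool of mice per genotype, the deleted gene and any other difference between the pools cannot be told apart in these ratios.

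A second set of large ratios rested on the few cells rich in other cells' markers. Prss34 and Mcpt8, proteases of basophils, had 553 and 555 UMIs in WT against 13 and 10 in Col1a1fspKO, and 70.5% and 78.6% of their UMIs over both libraries came from 1 cell. Without the cells named above they had 12 and 18 UMIs in WT against 13 and 9. Cpa3 and Prg2, also of mast cells, basophils and eosinophils, had 62 and 51 UMIs in WT against 1 and 0, and 2 and 3 against 1 and 0 without those cells. Ccl5, a chemokine of T and natural killer cells, had 279 UMIs in Col1a1fspKO against 51, and 8 against 5 without them. Ngp, a neutrophil granule gene, had a ratio of 3.09 (2.79 to 3.42) and of 1.16 without them, and Camp of 2.17 (2.004 to 2.35) and 1.16 (0.991 to 1.35). These ratios thus rested on few cells. For Cd7 and Cd209a the UMIs fell without those cells but the ratios did not. Cd7 had 61 UMIs against 18 with them, a ratio of 4.44, and 29 against 2 without them, a ratio of 20.2. Cd209a had 41 against 10 with them, a ratio of 5.37, and 12 against 0 without them, a ratio of at least 5.58 with the floor of 3 UMIs. Cd209a was seen in 7 and 2 cells.

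**Figure D5:**
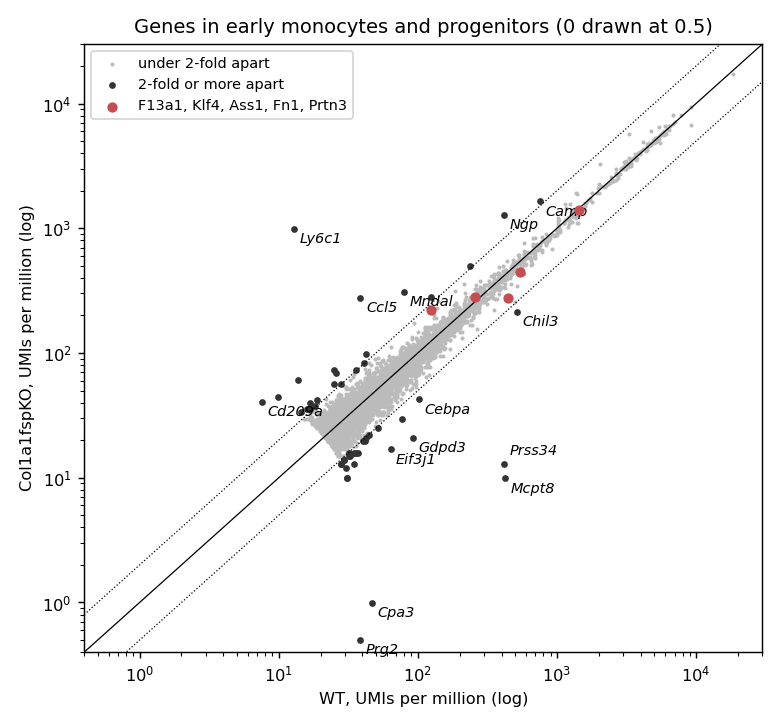
Level of each of 4408 genes in the early cells in CPM (log axes, 0 drawn at 0.5), WT on the horizontal and Col1a1fspKO on the vertical axis, with dotted lines at 2-fold. Ly6c1 lies far above the diagonal, and the basophil, mast cell and eosinophil genes Prss34, Mcpt8, Cpa3 and Prg2, which rest on a few WT cells, lie far below it.

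Among the myeloid genes, Chil3, Cebpa and Prss57 were at least 2-fold lower in Col1a1fspKO. Chil3 had UMIs in 38.9% of the Col1a1fspKO cells against 62.9% of the WT cells, Cebpa in 30.5% against 49.2% and Prss57 in 8.42% against 14.4%. Chil3, a chitinase-like protein of monocytes, stood at 215 CPM (187 to 245) against 517 (479 to 557), a ratio of 0.415 (0.355 to 0.485), and of 0.432 (0.360 to 0.516) without the cells rich in other cells' markers. Cebpa, a transcription factor of granulocyte-monocyte progenitors, stood at 42.7 CPM against 102, a ratio of 0.420 (0.291 to 0.596) and of 0.445 (0.299 to 0.649) without them. In the 4 protease groups without them, from the highest to none, Cebpa stood at 45.8, 46.8, 31.4 and 69.4 CPM in Col1a1fspKO. Its WT levels were 93.0, 104, 84.2 and 108 CPM, each higher. The Col1a1fspKO levels rested on only 11, 10, 10 and 6 UMIs, against 26, 38, 27 and 25 for WT. With so few UMIs, the difference within any single group is uncertain. Over the same groups Chil3 stood at 16.6, 84.3, 217 and 809 CPM in Col1a1fspKO. Its WT levels were 85.8, 90.3, 508 and 1294.8 CPM, so it was close at 10 to 50. In mature monocytes the ratios were 0.537 (0.494 to 0.583) for Chil3 and 0.622 (0.477 to 0.809) for Cebpa. Prss57, a granule protease, had 16 UMIs against 49, a ratio of 0.428 (0.227 to 0.765), and without the cells rich in other cells' markers 37 of its 43 WT UMIs lay in the 15 cells with at least 50 protease UMIs per 10000.

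Of the fixed markers, Fn1 and Ass1 were the 2 farthest apart. Fn1 had a ratio of 0.620 (0.536 to 0.717) in the early cells and 0.824 (0.747 to 0.908) in mature monocytes. By protease group its levels were close in the cells with 10 to 50 protease UMIs (108 and 120 CPM) and in those with 0 (971 and 1044.5), and apart in those with under 10 (506 and 873). Ass1 had a ratio of 1.78 (1.45 to 2.19) in the early cells and 1.02 (0.711 to 1.46) in mature monocytes, with 258, 272, 223 and 150 CPM in Col1a1fspKO and 129, 202, 99.7 and 86.3 in WT over the protease groups. S100a4 had a ratio of 0.742 (0.658 to 0.836), Lyz2 of 0.727 (0.705 to 0.749), Cebpb, a transcription factor of mature myeloid cells, of 0.729 (0.663 to 0.801), and Cxcr4, which retains cells in the marrow, of 0.634 (0.478 to 0.836). Csf2ra, a subunit of the receptor of granulocyte-macrophage colony-stimulating factor, had a ratio of 1.44 (1.15 to 1.81). All of these were under 2-fold apart. By protease group Lyz2 was close at 50 or more (1423.5 against 1412.6 CPM) and higher in Col1a1fspKO at 10 to 50 (5739.8 against 4031.6). It was lower there under 10 (10100.3 against 13645.2) and at 0 (17284.6 against 23034.8), whereas S100a4 was lower in each group. Cells with 0 protease UMIs, where both genes were highest, made up 26.3% of all early cells in Col1a1fspKO and 37.1% in WT. These shares include the cells rich in other cells' markers, which the levels by group leave out. The part of these shares in the ratios of Lyz2 and S100a4 was not tested.

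The counts of genes 2-fold apart between the libraries are given by list and stand beside 0.522% higher and 0.635% lower over all genes. With lists of this size, 0 or 1 gene is near that share and says nothing particular of a list. Of 26 Ly6C-high monocyte genes 0 were higher and 1, Chil3, was lower, with a median log2 ratio of -0.06. Of 21 myeloid transcription factors 1, Cebpa, was lower, and of 10 primary granule genes 1, Prss57, with a median of -0.26. Of 33 S phase genes and 38 G2/M genes 0 were apart, with medians of 0.06 and 0.21. Of 6 stem and progenitor genes 0 were apart, with a median of -0.47. Without the cells rich in other cells' markers, 1 of 36 G2/M genes, 1 of 14 chemokine receptors and adhesion molecules and 2 of 17 interferon-stimulated genes were higher, and 1 of 6 stem and progenitor genes was lower. Of 15 growth factor and cytokine receptors, 15 chemokine receptors and adhesion molecules, 20 lysosome genes, 8 matrix genes and 13 chaperones 0 were apart in either direction. Of 19 interferon-stimulated genes 1, Mndal, was higher, with a median of 0.16. Of 15 secondary and tertiary granule genes 3, Camp, Ngp and Wfdc21, were higher, with a median of 0.51, and 0 of 13 without the cells rich in other cells' markers, with a median of 0.04.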

How the data were processed

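Live bone marrow cells of Fsp1-Cre;Col1a1flox/flox mice and Cre-negative littermates were profiled with the 10x Genomics 3' v2 chemistry, 1 library per genotype. The deposited tables hold the authors' unnormalised UMI counts for each cell. The submitters' processing notes name Cell Ranger, mm10 and Seurat 3.5.3. Genes listed for 1 library were set to 0 in the other. Cells in the deposited tables had 583 to 4975 genes and at most 8.12% mitochondrial UMIs. All of them lay within the study's own limits.

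The cells, gene lists and comparison classes were chosen with earlier results of these data known. UMIs were summed per class and library and divided by the class total. Intervals at 95% were exact Poisson for levels, exact conditional binomial for ratios, Clopper-Pearson for shares and Newcombe's for their difference. A ratio against 0 UMIs used 3 UMIs as a floor. Thinning drew 2500 UMIs per cell. Doublets were called with Scrublet (scanpy 1.11.5) only for an alternative. Named genes were the rule genes, 5 markers, list genes, the 10 highest and lowest genotype ratios, and 15 each way for each class comparison, by the ratio nearer to 1 of the 2 libraries. The ratio was tested on simulated data (Python 3.11.15, scipy 1.17.1).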

Additional observations from a re-analysis of the deposited data

Results flagged for a closer look

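5 genes had a ratio of Col1a1fspKO over WT that pointed one way in the early cells and the other way in mature monocytes, by at least 1.5-fold each with both intervals on 1 side of 1. The difference between the classes was not tested, and there is 1 library per genotype. Prss34 had a ratio of 0.0308 in the early cells and 38.4 in mature monocytes, where it had 230 UMIs in Col1a1fspKO and 5 in WT. Mcpt8 had ratios of 0.0236 and 73.4, with 264 and 3 UMIs in mature monocytes. Without the cells rich in other cells' markers the early ratios were 1.51 and 0.698. The mature monocytes were not screened for such cells. Their basophil, mast cell and eosinophil genes stood at 446 CPM in Col1a1fspKO against 13.8 in WT, so these mature ratios may also rest on basophil-like cells. Cd209a, a lectin of dendritic cells and dendritic-leaning monocytes, had ratios of 5.37 and 0.139, from 41 and 10 UMIs in the early cells and 9 and 54 in mature monocytes. Aif1, an actin-binding protein of monocytes and macrophages, had ratios of 1.56 and 0.644, from 88 and 74 UMIs and from 85 and 110. Purb, a nucleic acid-binding protein, had ratios of 1.70 and 0.569, from 52 and 40 UMIs and from 30 and 44.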

How the results depend on the processing

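The difference in the share of early cells was negative under all 8 alternatives, from -6.03 points when cells were kept out only at 5 UMIs of Clec4a1, Clec4a3 and Wfdc17 to -3.15 after thinning, and its interval excluded 0 each time. The Col1a1fspKO table has 155 cells below the lowest WT depth of 2909 UMIs, and without them the difference was -3.23 points. The difference in the protease-rich share lay between -0.159 and 5.70 points. The difference in the G2/M share was 15.9 points (2.76 to 28.4) at 2 or more UMIs and 11.9 (-1.94 to 25.3) without cells rich in other cells' markers, so whether its interval excludes 0 depends on the limit.

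The number of genes at least 2-fold higher in Col1a1fspKO was 127 with a minimum of 20 UMIs and 7 with 200, and the number lower was 170 and 3; the minimum sets how many genes are compared, and what else moved the counts was not tested. With means over cells 53 were lower. Among cells under 10 protease UMIs per 10000, 8 named genes moved beyond their interval, among them Prtn3 to a log2 ratio of 0.75 and Ass1 to 1.16, and that of Ngp was -1.17, and without cells rich in other cells' markers that of Prss34 was 0.60. That last alternative was chosen after seeing the data. Scrublet called 5 cells in each library, 0 of them early cells. No paired analysis was possible because each genotype has 1 library and no test was made. Pooled mice and 1 library per genotype limit all comparisons between genotypes.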
